A study of Arabidopsis thaliana with 4 samples.

Results

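Poly(A) windows of single-site genes were described here, that is, the 100-nt stretches around the poly(A) sites of Arabidopsis genes that had exactly 1 window in the in vivo table of SHAPE reactivities. Of 6605 in vivo windows from 3338 genes, 1832 (27.7%) were the only window of their gene, and 187 of these (10.2%) were also among the 1068 deproteinized windows. The remaining 4773 in vivo windows came from 1506 genes with several windows, called multi-site genes below, with up to 12 windows in a gene. Both names refer to in vivo windows only, not to all poly(A) sites of a gene. Among the 187, 7 had a gene with 2 or more deproteinized windows. For 2 further single-site windows the gene had a different window in the deproteinized condition only. Nuclear RNA of 5-day-old Arabidopsis thaliana Col-0 seedlings was probed with NAI, a reagent that acylates the ribose of flexible and mostly unpaired nucleotides so that reverse transcription stops next to them. In the deproteinized condition NAI at 100 mM was applied to nuclear RNA after nuclei had been isolated and lysed and proteins removed, with a control that received no NAI. In the in vivo condition NAI at 100 mM was applied to whole seedlings before nuclei were isolated, again with a control without NAI. Each condition is 1 profile, because the authors merged the libraries of 2 biological replicates. The merged tables give no spread over replicates, no test was run, and every SD below is a spread over windows, which are not replicates of a condition. The tables hold no read or RT-stop counts, so the depth behind a score is unknown.

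Cleavage and polyadenylation cut the nascent transcript at the poly(A) site and add the tail there. In eukaryotes the cleavage machinery reads a signal upstream of the site, whose best known form is the hexamer AAUAAA, and in plants this near upstream element is often a variant of the hexamer set among U-rich and A-rich stretches. A high SHAPE score marks a nucleotide that NAI could reach, usually one that is neither paired nor covered.

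The first sequences show where the hexamer lies relative to the site. They are the first 8 windows in order of gene ID that had values in both conditions and held exactly 1 AAUAAA starting from -30 to -14, position 0 being nucleotide 51 of the window and the poly(A) site. Each runs 5′ to 3′ from -28 to +1 on TAIR10.1, the sequence taken from RefSeq, and the capitals mark the hexamer.
ABCG35 (AT1G15210), chromosome 1, 5231491 to 5231520, minus strand: uucuugcAAUAAAgcuuugcuuccucuuuu
AT1G56700, chromosome 1, 21257722 to 21257751, plus strand: cAAUAAAuggaauauaaguucacuucucua
AT1G60010, chromosome 1, 22095540 to 22095569, minus strand: uuauugAAUAAAcucuucucuuauguuccu
AT3G08610, chromosome 3, 2615445 to 2615474, minus strand: gcugugugagugAAUAAAugaauaucugga
XTH24 (AT4G30270), chromosome 4, 14819270 to 14819299, minus strand: AAUAAAggaaaugaugugucuuuacucuua
AVA-P1 (AT4G34720), chromosome 4, 16567988 to 16568017, minus strand: guAAUAAAgaagcucugaggaguuugguau
ACR12 (AT5G04740), chromosome 5, 1368547 to 1368576, minus strand: aaaaAAUAAAuggguucuugacacuugauu
AT5G10960, chromosome 5, 3465659 to 3465688, plus strand: uauuuAAUAAAuaaucuccaauuuuaauuu

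The next 10 sequences show the site itself in the windows with the most extreme in vivo scores over -4 to +1, the capitals marking those 6 nucleotides. The first 5 had the highest mean score there and the last 5 the lowest.
AT5G26830, chromosome 5, 9441723 to 9441752, plus strand: uugguccccuuuuaguaucauuuuAUGGAA
AT3G52220, chromosome 3, 19369388 to 19369417, minus strand: aacacaugaaaaaugugguuugauAUUAUA
AT4G27652, chromosome 4, 13810326 to 13810355, plus strand: auaauaauagugguuaugaauuuuUGAUGA
LINC3 (AT1G68790), chromosome 1, 25834811 to 25834840, minus strand: uaucaccuuucuuuaucuaagcaaCUGAAA
AT1G45688, chromosome 1, 17193146 to 17193175, plus strand: ccuuuaauauguaaauuuauugguUUUGGA
OPR2 (AT1G76690), chromosome 1, 28780470 to 28780499, plus strand: aaaagagcuuuuauaugugcuuucAACAUC
AT5G16360, chromosome 5, 5355081 to 5355110, minus strand: acaguuaaaauaaauuucuuguuuCCAAGA
AT1G07400, chromosome 1, 2275738 to 2275767, plus strand: auuaagcaaggccuuuauauucucGUUUCA
AT3G28670, chromosome 3, 10746990 to 10747019, plus strand: ucacaagugacaagucucuguuuuGAUCAA
AT1G06800, chromosome 1, 2089443 to 2089472, minus strand: aaacaaaauugaacgucccuaucuUAGUGA

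Nearly all of the sites lay in a 3′UTR. In the RefSeq annotation of TAIR10.1, 1827 of the 1832 windows belonged to protein-coding genes with a strand, 939 on the plus and 888 on the minus strand, and the other 5 were left out wherever a sequence was used. Of the 1827 sites, 1742 (95.3%) fell in an annotated 3′UTR, 84 lay past the annotated 3′ end of the gene and 1 lay in an intron. Fewer sat at an annotated end itself: 407 (22.3%) were within 10 nt of the end of a transcript and 622 within 25 nt, and the median site lay 59 nt upstream of it (position -59, quartiles -133 and -7). At 332 sites another gene was annotated on the opposite strand.

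Before the profiles are read, the scale has to be known. The deposited scores ran from 0 to 2 in every window, and 1826 of the 1832 windows held exactly 5 scores of 0 while 1824 held exactly 6 scores of 2. A score is therefore relative to its own window, and a position where nothing is special would hold the highest score in 6% and the lowest in 5% of windows. In addition a single intermediate score recurred within a window, over a median of 30 of its 100 nt (quartiles 20 and 38). The mean score of a window ranged narrowly, between 0.347 and 1.08 with a median of 0.778, so that the information lies in where the high scores fall.

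The in vivo profile of the single-site windows had an elevated stretch upstream of the site and a sharp one at the site. The average score was highest at -1 (0.847 ± 0.558, SD over 1832 windows), followed by -19 (0.840 ± 0.573) and the site itself (0.835 ± 0.554). The lowest averages stood next to these peaks, 0.729 at -5, 0.732 at +7 and 0.733 at -33. The regions -28 to -17 and -4 to +1 come from the paper, which reports them as more reactive than their flanks in these data. High values inside them are therefore no independent support for that finding. Of the 20 highest of the 81 positions from -40 to +40, 10 lay among the 12 positions from -28 to -17 and 3 among the 6 positions from -4 to +1. A further 3 lay from +2 to +6, which places the downslope of the second peak partly outside the stretch that ends at +1. The whole profile stayed between 0.729 and 0.847 while the SD over windows at each position was 0.472 to 0.573, so the averages describe a small shift of a broad distribution and not a state shared by every window.

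**Figure D1:**
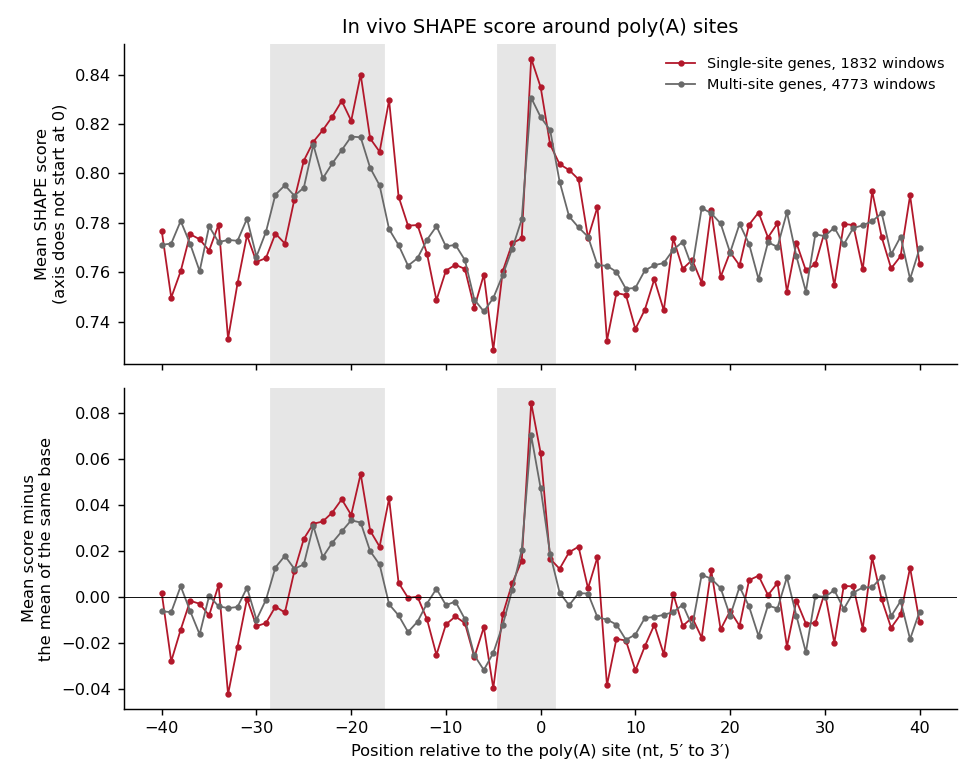
The upper panel plots the mean in vivo SHAPE score and the lower panel the mean after the average of the same base was taken away, against position in nt from the poly(A) site, for single-site windows (red) and multi-site windows (grey); grey bands mark -28 to -17 and -4 to +1. In single-site windows the mean peaks at -1 with 0.847 and is high from -25 to -16, and no error bars are drawn because each condition is 1 merged profile.

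Over -28 to -17 the single-site windows averaged 0.809 ± 0.203 in the region against 0.766 ± 0.144 in the 12 nt on each side (SD, n = 1832 windows), a difference of 0.0428 ± 0.210. The region was above its flanks in 1025 windows (55.9%), where the share over all 6605 in vivo windows was 54.4%. Over -4 to +1 they averaged 0.800 ± 0.246 against 0.766 ± 0.139 in the flanks, a difference of 0.0334 ± 0.259, and 966 windows (52.7%) were above their flanks, where the share over all in vivo windows was 52.2%. Both shares of the single-site windows are thus close to the background of the table, and both are near an even split. The median differences, 0.0278 and 0.0195, were smaller than the means.

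Multi-site windows gave a similar profile. Their region from -28 to -17 exceeded its flanks by 0.0329 ± 0.217 and their region from -4 to +1 by 0.0306 ± 0.266 (SD, n = 4773 windows), against 0.0428 and 0.0334 in single-site windows. The averages of single-site and multi-site windows over the 81 positions correlated with r = 0.768, a description over positions that share bases and libraries. These differences were not tested, as windows are not replicates.

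The share of windows at the top of their scale followed the same outline. The highest score was found in 8.30% of single-site windows at position 0, in 8.19% at -19 and in 7.64% at +1, against 4.04% at -5. Over -28 to -17 it was found at 7.11% of nucleotides against 5.62% in the flanks, and over -4 to +1 at 6.52% against 5.70%. Scores of 0 did not become rarer there: they made up 5.36% of the nucleotides from -28 to -17 against 4.98% in the flanks, and 5.59% of those from -4 to +1 against 4.99%. Position -2, just upstream of the peak, held the most zeros of the profile (7.04% of windows). Both regions were thus richer in extreme scores of either kind.

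**Figure D2:**
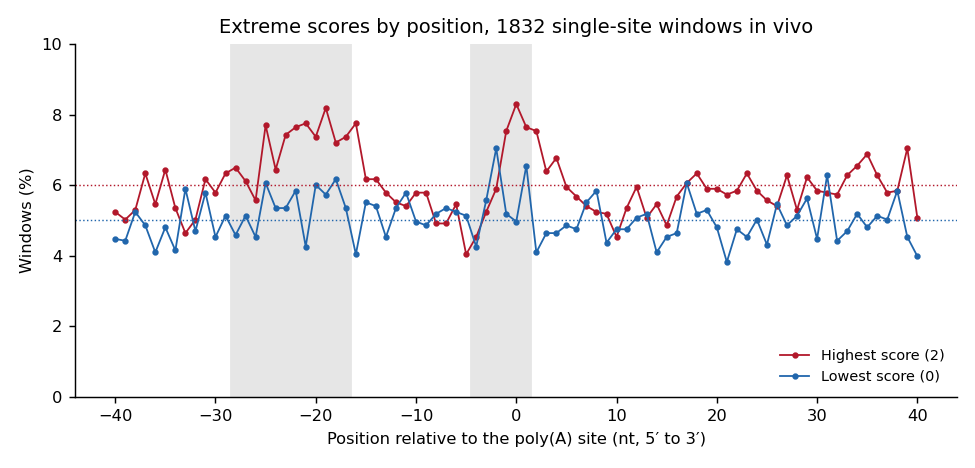
Percent of the 1832 single-site windows with the highest (2, red) or lowest (0, blue) in vivo score at each position in nt from the poly(A) site; dotted lines mark the 6% and 5% that an even spread within windows would give, and grey bands mark -28 to -17 and -4 to +1. The highest score reaches 8.30% at position 0, and the lowest score reaches 7.04% at -2.

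Few windows had a site region that was high throughout. Over -4 to +1, 1246 of the 1832 windows had no nucleotide at the highest score, 471 had 1 and 115 had 2 or more, among them 14 with 3 or more. In the upstream region 819 single-site windows (44.7%) had none, 613 had 1, 278 had 2 and 122 (6.66%) had 3 or more. Of the multi-site windows 48.4% had none there and 6.24% had 3 or more. A window with a high upstream region was hardly more likely to have a high site region. Both regions were above their flanks in 548 windows (29.9%), the upstream one alone in 477, the site region alone in 418 (22.8%) and neither in 389 (21.2%), where the product of the separate shares is 29.5%. The multi-site windows had nearly the same shares, with both in 29.6%, the upstream region alone in 24.2%, the site region alone in 22.5% and neither in 23.8%. Over the 1832 windows the means of both regions correlated with r = 0.0550, values that share a window's scale.

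The score differed by base. Over all positions of the single-site windows A had the highest mean score, 0.829 ± 0.557 (SD, n = 56595 nucleotides), then U with 0.779 ± 0.526, G with 0.747 ± 0.488 and C with 0.695 ± 0.450. A was found at the highest score in 7.90% of cases and C in 3.23%. The bases were spread unevenly about the site. A made up 38.6% of the nucleotides from -28 to -17, against 30.4% from -40 to -29 and 27.3% from -16 to -5. U peaked from -16 to -5 with 42.1%. At the site the preceding nucleotide was U in 44.4% and C in 26.7% of windows, and the following one was A in 57.9%, after which A also stood at +2 in 49.8%. The commonest pair at 0 and +1 was UA (363 windows, 19.9%), followed by CA (267 windows, 14.6%).

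With each score taken relative to the mean of the same base, the average at -1 was 0.0842 and at the site 0.0624, the highest of the profile, then 0.0534 at -19. The difference between region and flanks was 0.0355 ± 0.206 over -28 to -17 and 0.0374 ± 0.256 over -4 to +1 (SD, n = 1827 windows), against 0.0428 and 0.0334 without centring. Each base by itself scored higher in the regions: A averaged 0.856 from -28 to -17 against 0.813 from -40 to -29 and 0.812 from -16 to -5, and C averaged 0.726 from -4 to +1 against 0.697 from -16 to -5 and 0.685 from +2 to +13. At -1 the mean was 0.934 for A, 0.854 for G, 0.853 for U and 0.772 for C, so all bases stood above their own average there.

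AAUAAA starting from -34 to -11 was found in 190 of the 1827 single-site windows with a sequence (10.4%), searched on the transcript strand only. In multi-site windows it was found in 232 of 4771 (4.86%). In a stretch of the same length downstream, with starts from +17 to +40, it was found in 44 single-site windows (2.41%) and 133 multi-site windows (2.79%). Another 677 single-site windows (37.1%) held no AAUAAA upstream but a hexamer 1 letter away from it, and 960 (52.5%) held neither, against 1318 (27.6%) and 3221 (67.5%) of the multi-site windows. Of the 1-letter variants AAUGAA was the most frequent upstream (100 single-site windows, 5.47%, against 27 or 1.48% downstream), then AAUAAU and UAUAAA with 94 windows each (5.15%). UGUA, the core of an upstream element in animals, gave no such contrast over the same starts, with 210 windows upstream and 212 downstream. Starts upstream of -34 were not searched, so the counts do not cover an element lying there. The hexamer started most often at -21 (26 windows) and -23 (22 windows), with a median start of -22, and 155 of the 190 starts (81.6%) fell from -28 to -17, as in the sequences of ABCG35, AT1G60010 and ACR12 above.

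The hexamer was more reactive than the nucleotides beside it. Over the 190 windows the 6 nt of AAUAAA averaged 0.895 ± 0.311 in vivo and the 6 nt on each side 0.764 ± 0.184 (SD over windows), a difference of 0.132 ± 0.305. The motif was above its sides in 125 windows (65.8%), against 157 of 232 multi-site windows (67.7%). The score was highest at the fourth nucleotide, an A (0.990 ± 0.638), then at the second, also an A (0.940 ± 0.682), and at the U between them (0.918 ± 0.632). The highest score of the window was found at 12.5% of motif nucleotides against 5.70% of those at its sides. It occurred at least once within the motif in 103 of the 190 windows (54.2%), against 112 of 232 multi-site windows (48.3%). Scores of 0 were also frequent at the first and second motif nucleotides, in 9.47% and 11.1% of windows. At the other motif nucleotides the share of zeros was 3.16% to 6.84%, and at the side positions 1.58% to 7.89%. Comparing A with A, the mean was 0.891 ± 0.628 in the motif (n = 950 nucleotides) and 0.798 ± 0.525 at the sides (n = 729); comparing U with U, it was 0.918 ± 0.632 (n = 190) and 0.778 ± 0.521 (n = 795). In multi-site windows the motif exceeded its sides by 0.166 ± 0.331 (n = 232 windows). The same hexamer downstream of single-site poly(A) sites, starting from +17 to +37, averaged 0.911 ± 0.267 against 0.829 ± 0.207 at its sides (n = 39 windows), a difference of 0.0820 ± 0.320. There it was above its sides in 24 of the 39 windows (61.5%).

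The elevated stretch upstream was not a property of windows with AAUAAA alone. Over -28 to -17 the region exceeded its flanks by 0.0629 ± 0.230 in the 190 windows with the hexamer, by 0.0408 ± 0.215 in the 677 windows with a 1-letter variant and by 0.0401 ± 0.201 in the 960 windows with neither. Over -4 to +1 the differences were 0.00893 ± 0.244, 0.0347 ± 0.259 and 0.0375 ± 0.262 for the same classes. The spread over windows was far wider than any of these values, and the order of the classes at the site was not the same in other sets: it was 0.0945, 0.0192 and 0.0562 in the 187 windows without proteins, 0.0264, 0.0205 and 0.0741 in the same windows in vivo, and 0.0288, 0.0136 and 0.0376 in multi-site windows. Upstream the hexamer class was the highest in each of these sets, though it held only 17 of the 187 windows. For the same sets in turn the upstream differences were 0.156, 0.0678 and 0.0689, then 0.104, 0.0945 and 0.0975, then 0.0810, 0.0458 and 0.0241.

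By position, predicted pairing was lowest at +2, just downstream of the site. The windows were folded in silico at 37 °C from sequence only, without reactivities, and the mean probability of being unpaired was 0.482 from -28 to -17 and 0.509 from -4 to +1, against 0.486 from -40 to -29, 0.482 from -16 to -5, 0.505 from +2 to +13 and 0.507 from +14 to +40. By position from -40 to +40 it was lowest at -4 (0.465), then 0.519 at -1 and 0.545 at the site, highest at +2 (0.552), and 0.475 at +8. Nucleotides predicted to be unpaired with a probability of at least 0.75 averaged 0.794 ± 0.537 in vivo (n = 66744), against 0.749 ± 0.498 for those predicted to be unpaired with a probability under 0.25 (n = 60957). The gap was 0.0598 for A, 0.0537 for G, 0.0360 for U and 0.00717 for C. Over the 1827 windows the predicted openness and the mean score correlated with r = 0.0697 from -28 to -17 and 0.0714 from -4 to +1, and windows share neither gene nor sequence here apart from 55 that overlap a window of another gene.

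The individual windows show what lies behind the averages at the site. Mean in vivo scores over -4 to +1 ranged between 0.212 and 1.79, with a median of 0.782. AT5G26830, which encodes a threonyl-tRNA synthetase that charges tRNA with threonine, had the highest mean, 1.79, with in vivo scores of 1.40, 1.95, 1.64, 1.75, 2 and 2 from -4 to +1. AT3G52220 followed with 1.69 and 4 nucleotides at the highest score, but 0.220 at the site itself. LINC3, a protein of the nuclear lamina-like structure, averaged 1.58 with 3 highest scores, and AT4G27652 and AT1G45688 averaged 1.66 and 1.57. At the other end OPR2, a 12-oxophytodienoate reductase by annotation, averaged 0.212, with no score above 0.513 and a 0 at the site. AT5G16360 averaged 0.244, AT1G07400, a small heat shock protein of the HSP20 class, 0.251, AT3G28670 0.280 and AT1G06800, a lipase, 0.291. AT1G07400 was high upstream, with a mean of 1.28 over -28 to -17 and 3 highest scores there, so its low site region did not extend over the window. A stood at +1 in 5 of the 5 highest and in 4 of the 5 lowest of these windows, against 57.9% of all single-site windows.

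In the upstream region the in vivo means ranged between 0.216 and 1.54, with a median of 0.797. The highest were those of KNAT6, a homeobox transcription factor of the shoot meristem (1.54), FRO3, a ferric reductase (1.54), ATPC1, the gamma subunit of the chloroplast ATP synthase (1.46), AT3G11500, a small nuclear ribonucleoprotein (1.44), and DYL1 (1.42). KNAT6 had 4 of its 6 highest scores in this region and averaged 0.400 over -4 to +1, whereas FRO3 averaged 1.23 there. The lowest were ML1, a Mei2-like RNA-binding protein (0.216), HSP101, a chaperone that resolves protein aggregates (0.283), AT3G52480 (0.290), AT4G24380 (0.291) and AT1G02080 (0.305). In HSP101 the flanks were also low (0.384) while the site region averaged 0.896, and in AT3G52480 and AT4G24380 region and flanks were nearly alike. AT3G52480 scored 0.318 at every position from -4 to +1 except -1 (0.466), so a single repeated score made up most of that stretch.

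Grouped by the words of the RefSeq product, the classes mostly had averages close to each other. Ribosomal proteins (39 windows) averaged 0.814 ± 0.171 over -28 to -17 and 0.833 ± 0.244 over -4 to +1, as with SAC52, AT1G15250 and AT1G16740. Products with the word kinase (146 windows, among them FKGP, but also NET1D, a kinase interacting protein) averaged 0.804 ± 0.175 and 0.792 ± 0.234, transcription factors (81 windows) 0.801 ± 0.196 and 0.811 ± 0.249, products naming heat shock or chaperones (38 windows) 0.791 ± 0.249 and 0.762 ± 0.248, and products naming ubiquitin (32 windows, such as UBP15 and UBC34) 0.767 ± 0.216 and 0.788 ± 0.214. All other products (1461 windows) averaged 0.813 ± 0.205 and 0.801 ± 0.248. These means differ by less than the spread of windows within any class.

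The small classes stood further apart, on few windows. The 8 windows of products naming tubulin or actin averaged 0.991 ± 0.236 over -4 to +1, and 7 of them were above their flanks, where the share over all in vivo windows was 52.2%. TUA3, an alpha-tubulin, had a mean of 0.712 at the site. The mean of the 8 windows over -28 to -17 was 0.775 ± 0.204. The 4 windows of products naming a photosystem or chlorophyll a/b binding averaged 0.648 ± 0.163 over -28 to -17 and 0.539 ± 0.0950 over -4 to +1, where none was above its flanks, with PSAK at 0.611, LHCA2 at 0.622 and AT1G76450 at 0.423. The 8 windows naming histones, which include histone methyltransferases such as SUVH3 and EFS, averaged 0.747 ± 0.182 and 0.715 ± 0.271, and 1 of them was above its flanks at the site. The 10 cytochrome P450 windows averaged 0.737 ± 0.210 and 0.734 ± 0.235, with 3 above their flanks at the site. Classes of 4 to 10 windows allow no statement on the class.

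The 187 windows with values in both conditions were not a random part of the 1832. The share with a deproteinized profile was 10.2% of single-site windows, against 16.9% of multi-site windows (805 of 4773). The recurring intermediate score covered a median of 17 of 100 nt in vivo in these 187 windows, against 31 in the 1645 windows found only in vivo. When the 1832 windows were split into 3 classes by how much of the window that score covered, a deproteinized profile existed for 138 of 639 windows with 24 nt or fewer, for 35 of 632 with 25 to 36 nt and for 14 of 561 with 37 nt or more. The in vivo difference between -28 to -17 and its flanks was 0.0969 ± 0.241 in the 187 windows, against 0.0367 ± 0.205 in the 1645 found only in vivo. At -4 to +1 it was 0.0494 ± 0.274 against 0.0316 ± 0.257. In these 3 classes this difference was 0.0509, 0.0452 and 0.0311 upstream and 0.0473, 0.0345 and 0.0165 at the site, lowest where the recurring score covered most of the window. The part of that score in these values was not tested. By product, 3 of 8 histone windows, 6 of 32 ubiquitin windows and 10 of 81 transcription factor windows had a deproteinized profile, against 1 of 39 ribosomal protein windows and 1 of 38 heat shock or chaperone windows.

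In the 187 windows both conditions showed the upstream stretch. Without proteins the region from -28 to -17 averaged 0.876 ± 0.211 against 0.799 ± 0.147 in its flanks (SD, n = 187 windows), a difference of 0.0764 ± 0.219, and 116 windows (62%) were above their flanks, where the share over all 1068 deproteinized windows was 56.3%. In vivo the same windows averaged 0.857 ± 0.222 against 0.760 ± 0.163, a difference of 0.0969 ± 0.241, with 118 windows (63.1%) above their flanks, where the share over all in vivo windows was 54.4%. Of the 187 windows, 85 were above their flanks in both conditions, 31 only without proteins, 33 only in vivo and 38 in neither. These joint counts were not made over all windows in both tables, so they do not measure agreement beyond the separate shares.

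At the site the pattern was weaker in both conditions. The region from -4 to +1 averaged 0.841 ± 0.282 against 0.795 ± 0.133 in its flanks in the deproteinized condition, a difference of 0.0456 ± 0.284, with 99 windows (52.9%) above their flanks, where the share over all deproteinized windows was 52.3%. With the recurring score taken as missing this difference was 0.00935 with 49.2% of windows above, and on the plus strand alone it was 0.0296 with 48.6% above. In vivo the region averaged 0.816 ± 0.264 against 0.766 ± 0.146, a difference of 0.0494 ± 0.274, with 103 windows (55.1%) above their flanks, where the share over all in vivo windows was 52.2%. Both conditions agreed in 65 windows above and 50 windows not above their flanks, and the remaining 72 were above in 1 condition only, 34 of them without proteins and 38 in vivo. Joint counts over all windows in both tables were not made here either, so these do not measure agreement beyond the separate shares.

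Deproteinized minus in vivo, the difference was 0.0191 ± 0.245 over -28 to -17 and 0.0252 ± 0.315 over -4 to +1 (SD, n = 187 windows), while over the whole 100 nt it was 0.0240 ± 0.111. Neither sign was stable: upstream the difference was -0.00169 on the minus strand and -0.00495 with each window centred on its mean, and at the site it was -0.00205 after base centring. The differences in both regions were of the size of the difference over the whole window. Upstream a window was higher without proteins by more than 0.3 in 26 cases (13.9%) and lower by more than 0.3 in 16 (8.56%), where the shares over all 992 windows in both tables were 12.3% and 9.17%. Over -4 to +1 it was higher in 43 windows (23%) and lower in 20 (10.7%), where the shares over all windows in both tables were 22.3% and 16.6%. The median difference at the site was -0.0170, and 88 of the 187 windows (47.1%) were higher without proteins, against a median of 0.0133 and 517 of 992 windows (52.1%) over all windows in both tables.

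Position by position the deproteinized average was above the in vivo average at 60 of the 81 positions. The largest excess was 0.135 at +21 and at +17, outside both regions, then 0.120 at +8, 0.116 at -27 and 0.108 at -26. The lowest values were -0.124 at +2, -0.0903 at -38 and -0.0820 at -21. At +2 the deproteinized average was 0.737 ± 0.533 and the in vivo average 0.861 ± 0.598, and at -22 they were 0.861 ± 0.592 and 0.931 ± 0.635. Within the upstream stretch the deproteinized profile was highest at -27 (0.933 ± 0.577, against 0.816 ± 0.572 in vivo), and the in vivo profile at -22. At each position the SD of the difference over windows was 0.580 to 0.843, several times the difference itself. The profiles of both conditions over the 81 positions correlated with r = 0.507, a description over positions of the same windows.

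**Figure D3:**
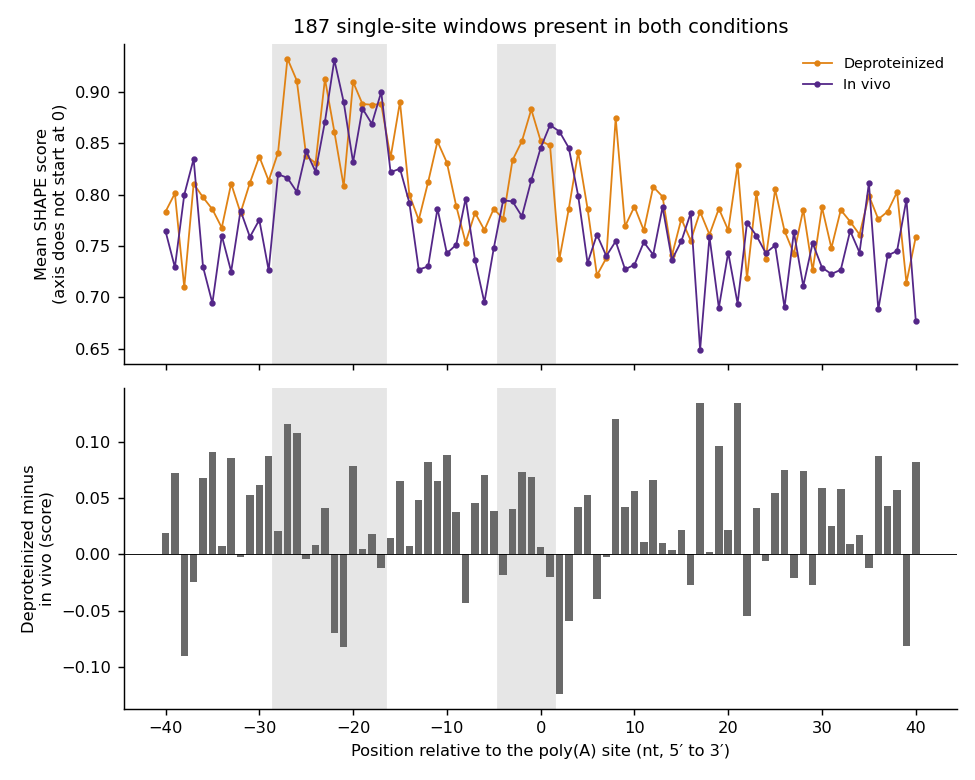
The upper panel plots the mean score of the 187 single-site windows present in both tables, deproteinized (orange) and in vivo (purple), against position in nt from the poly(A) site, and the lower panel plots deproteinized minus in vivo; grey bands mark -28 to -17 and -4 to +1. Both profiles are raised over -28 to -17, the deproteinized one highest at -27 and the in vivo one at -22, and the difference is lowest at +2 with -0.124.

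The bases differed in how they compared between conditions. C averaged 0.719 ± 0.480 without proteins and 0.645 ± 0.430 in vivo (n = 2987 nucleotides), and U averaged 0.826 ± 0.552 and 0.785 ± 0.544 (n = 7091). A went the other way, with 0.813 ± 0.546 without proteins and 0.838 ± 0.572 in vivo (n = 5450). In the deproteinized windows U therefore had the highest mean of the bases, and in vivo A had it. When scores were taken relative to the same base in each condition, deproteinized minus in vivo was 0.00304 over -28 to -17 and -0.00205 over -4 to +1, so both differences given above were close to 0 on that scale.

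Within a window the conditions were only loosely alike. The correlation over the 100 nt of a window had a median of r = 0.136 over the 187 windows (quartiles 0.0718 and 0.221), it was above 0 in 168 of them (89.8%), and above 0.3 in 21. The multi-site windows in both tables had a median of 0.166 (n = 805). Their correlation was above 0 in 701 (87.1%) and above 0.3 in 133. The nucleotides of a pair of profiles share their base, and profiles of single replicates were not analysed here. Of the 1122 nucleotides with the highest score in vivo, 188 (16.8%) also had it without proteins, where an even spread within windows would give 6%. In the multi-site windows in both tables this share was 19.5%. AT2G25450, a 2-oxoglutarate-dependent oxygenase, had the highest correlation, 0.596. AT2G25250 had the lowest, -0.171. The mean of a window over -28 to -17 correlated between conditions with r = 0.362, and over -4 to +1 with r = 0.337 (n = 187 windows).

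**Figure D4:**
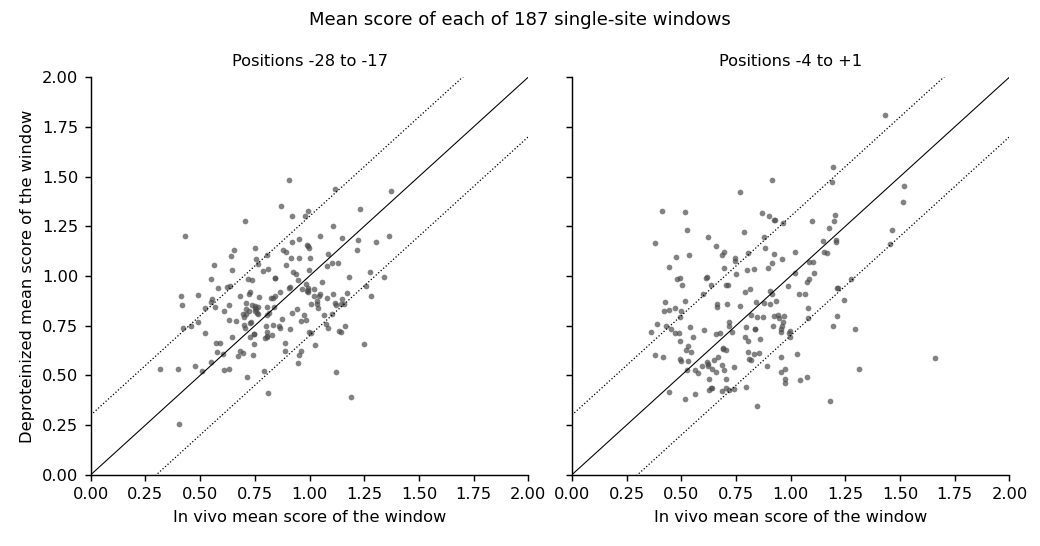
Each point is 1 of the 187 single-site windows, with its mean in vivo score on the horizontal axis and its mean deproteinized score on the vertical axis, over -28 to -17 (left) and -4 to +1 (right); the solid line marks equal scores and dotted lines a difference of 0.3 either way. Over -4 to +1, 43 windows lie above the upper and 20 below the lower dotted line, against 26 and 16 over -28 to -17.

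AT4G35750, a SEC14-like phospholipid transfer protein by annotation, averaged 1.33 without proteins and 0.413 in vivo over -4 to +1, with 2 and 0.646 at +1. It also had the largest excess over -28 to -17, with a difference of 0.770, so its difference spanned both regions. LRS1, a WD40 repeat protein, averaged 1.32 and 0.518, AT1G56700, a pyroglutamyl peptidase, 1.17 and 0.380, AGP12, an arabinogalactan protein of the cell surface, 1.23 and 0.526, and AT3G46700, a glycosyltransferase, 1.42 and 0.769, the deproteinized value first in each. AT1G56700 is one of the windows printed above with its hexamer, and there the order was the other way, as given below.

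The opposite was seen in AT4G27652, which averaged 0.588 without proteins and 1.66 in vivo over -4 to +1, with scores of 0.622, 0.927, 0.201, 0.731, 1.05 and 0 without proteins and 1.98, 1.69, 2, 0.928, 1.57 and 1.78 in vivo. RIN2, a RING-type ubiquitin ligase that interacts with a disease resistance protein, averaged 0.370 and 1.18. AT1G45248 averaged 0.534 and 1.31, WRKY26, a transcription factor, 0.494 and 1.07, and AT5G60400 0.479 and 1.04, again deproteinized before in vivo. RIN2, AT1G45248 and WRKY26 each had 2 scores of 0 in this stretch without proteins.

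Over -28 to -17 the largest excesses without proteins after AT4G35750 were those of HDA15, a histone deacetylase (1.48 without proteins and 0.907 in vivo), AT5G65660 (1.28 and 0.704), AT4G32440, a Tudor-like RNA-binding protein (1.06 and 0.564), and HUA2, a regulator of floral genes (0.897 and 0.411). The largest deficits were those of AT5G45190, a cyclin family protein (0.391 without proteins and 1.19 in vivo), CYP710A1, a sterol desaturase (0.518 and 1.12), PRA8 (0.657 and 1.25), SEC, an O-linked N-acetylglucosamine transferase (a difference of -0.425), and AT4G02370 (-0.415). In HDA15 4 nucleotides of the region had the highest score without proteins and 3 in vivo, where 3 others were at 0. For AT5G45190 the site region was nearly the same in both conditions, 0.922 and 0.905, and for PRA8 it was 0.786 and 1.08.

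AAUAAA was covered in both conditions in 17 single-site windows. The hexamer averaged 0.954 ± 0.316 against 0.835 ± 0.144 at its sides without proteins, a difference of 0.119 ± 0.337, and was above its sides in 9 of the 17. In vivo it averaged 1.08 ± 0.410 against 0.749 ± 0.201, a difference of 0.334 ± 0.382, and was above its sides in 14 of the 17. Deproteinized minus in vivo, the hexamer differed by -0.128 ± 0.507, with 8 of 17 windows higher without proteins, 3 of them by over 0.3, and 6 lower by over 0.3. The in vivo difference in these 17 windows was larger than the 0.132 over all 190 windows, so a value from the 17 does not stand for the 190. The fourth nucleotide of the hexamer averaged 0.792 ± 0.594 without proteins and 1.34 ± 0.568 in vivo, and the second 1.19 ± 0.560 and 1.25 ± 0.666.

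**Figure D5:**
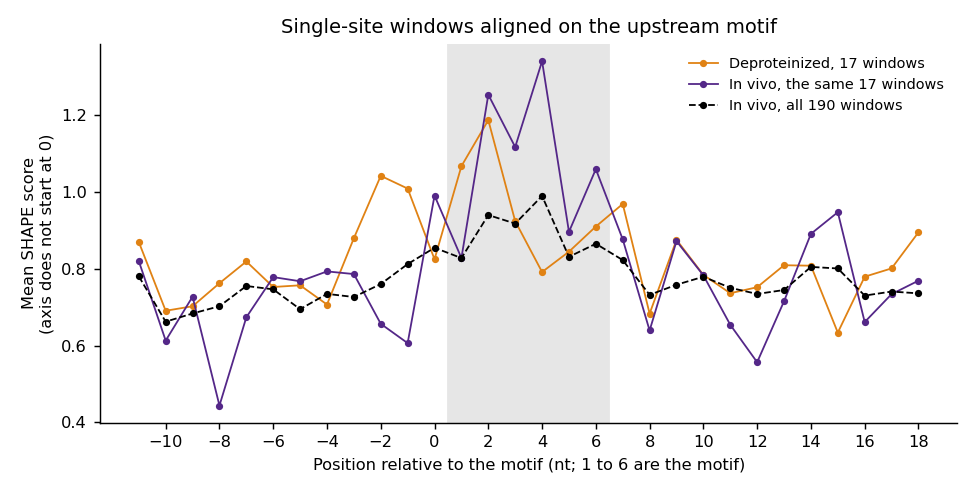
Mean SHAPE score of single-site windows aligned on the upstream AAUAAA, whose nucleotides are positions 1 to 6 (grey band), for the 17 windows with a deproteinized profile (orange), the same 17 windows in vivo (purple) and all 190 windows in vivo (dashed black); lines are means over windows. At the fourth nucleotide the 17 windows average 0.792 without proteins and 1.34 in vivo, and the 190 windows average 0.990 in vivo.

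The printed windows show how much single hexamers vary. In AT3G08610, a subunit of mitochondrial NADH dehydrogenase, the 6 nt of the hexamer scored 0.274, 0.535, 0.763, 0, 0.504 and 0.290 without proteins and 0.806, 1.86, 1.88, 1.69, 2.00 and 1.93 in vivo, the largest gap of the 8. In XTH24, an enzyme that remodels cell wall xyloglucan, they reached the highest score at 3 nucleotides without proteins and at 2 in vivo, with means of 1.52 and 1.49, so that this hexamer was high in both conditions. In AT1G56700 they averaged 1.21 without proteins and 1.58 in vivo, where 3 of them had the highest score. The means of the hexamer were 0.873 without proteins and 1.06 in vivo in ABCG35, an ABC transporter, 0.715 and 1.17 in AT1G60010, and 0.751 and 1.36 in AT5G10960. They were 1.46 and 1.17 in AVA-P1, a subunit of the vacuolar proton pump, and 0.771 and 0.681 in ACR12, the deproteinized value first. In 5 of the 8 windows, ABCG35, AT1G56700, AT1G60010, AT3G08610 and AT5G10960, the hexamer was thus lower without proteins, and in 3 it was higher.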

How the data were processed

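Nuclear RNA of Arabidopsis seedlings was probed with NAI in 2 conditions, with 4 library entries in all. The deposited tables hold SHAPE reactivities, unitless scores computed by the authors. Reads were checked with FastQC 0.11.5, trimmed with cutadapt 1.14 and mapped with HISAT2 2.1.0 to TAIR10 (versions from the submitters' processing notes), only reads crossing a poly(A) site or lying downstream of it were kept, and biological replicates were merged. For its own profiles the paper used sites with at least 1 RT-stop per nucleotide. It counts fewer such sites than there are deposited windows, so whether every window meets this threshold is unknown. The formula that gives a score between 0 and 2 in each window is not given in the sources used here. The 2 splicing tables were not used.

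Single-site windows were those whose gene had 1 window in the in vivo table. Windows were located on TAIR10.1, whose nuclear coordinates are those of TAIR10, and strands, products and sequences came from RefSeq. Mean scores of -28 to -17 and -4 to +1 were set against 12 nt on each side, and differences between conditions were taken over windows in both tables as deproteinized minus in vivo. AAUAAA was searched with starts from -34 to -11, taking the one nearest -20 where there were several. Folding of each window used ViennaRNA 2.7.2 with its temperature at 37 °C. Named windows are the 5 highest and 5 lowest in each region and the 5 largest differences either way; those with the extreme correlations between conditions were chosen after their values were seen. Products were grouped by words fixed in a list. Regions, windows and lists were chosen with earlier results of these data known. With 1 merged profile per condition no test was run and no paired analysis was possible. The calculation of region contrasts was checked on simulated windows. Calculations used Python 3.11.15, NumPy 2.4.6, pandas 2.3.3 and Matplotlib 3.10.9. Alternatives were other placements of the site, missing scores, flank widths, strands, window sets and base centring.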

Additional observations from a re-analysis of the deposited data

How the results depend on the processing

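For 8 results, 89 alternatives were computed, of which 66 stayed within 1.5 times the value reported, 19 lay outside and 4 turned the sign. The 66 include settings that could not change a value. No score was missing, so keeping only complete windows repeated the reported value of the region results. The deproteinized contrasts already used only windows in both tables, so that setting repeated them as well. The upstream and site differences from their flanks stayed above 0 in both conditions under all alternatives. The in vivo upstream difference was 0.0969 in the windows present in both tables and 0.0278 as a median. The in vivo site difference was 0.0222 with the recurring score as missing, 0.0134 with nucleotide 50 as the site and 0.0195 as a median, and the deproteinized one was 0.00935, 0.0290 and 0.0270 under the same settings and 0.0296 on the plus strand. Deproteinized minus in vivo did not keep its sign: over -28 to -17 it was 0.0301 with the recurring score as missing, 0.00304 after base centring, 0.0339 on the plus strand, -0.00169 on the minus strand, 0.0327 as a median and -0.00495 with each window centred on its mean; over -4 to +1 it was -0.00205 after base centring, 0.00754 with nucleotide 52 as the site, -0.0170 as a median and 0.00122 with each window centred on its mean. Centring on the window mean was chosen after seeing the data. The in vivo hexamer difference was 0.0877 after base centring and 0.334 in the 17 windows in both tables, a set chosen after seeing the data, and the deproteinized one was 0.0550 with the recurring score as missing and 0.0769 over A only. The causes were not tested. Depth is unknown, so no counting error limits can be given, and both conditions rest on 1 merged profile each.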
